A study of Rattus norvegicus with 12 samples.

Results

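Stellate cell and pericyte markers were followed in the livers of cystic and control rats, 10 genes in all: Rgs5, Pdgfra, Pdgfrb, Cygb, Lrat, Reln, Hgf, Des, Ngfr and Vim. They were chosen by gene symbol, and all 10 had a probe set among the 16592 named genes of the array table. The rats were male and 10 weeks old, ate a diet with 19% protein and drank tap water; 6 were PCK rats with cystic livers and 6 were Sprague Dawley controls with healthy livers. The PCK rat, whose label gives the strain as Crj:CD/SD (a Sprague Dawley stock bred in Japan), carries a mutation of Pkhd1, the gene of human autosomal recessive polycystic kidney disease, and forms cysts of the bile ducts and kidneys. The strain labels of the groups differ, so the mutation and any other difference between the stocks cannot be told apart. Each sample was whole liver of 1 animal on 1 array, called a biological replicate in its title, and the number of arrays limits the precision.

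Hepatic stellate cells lie between the sinusoidal endothelium and the hepatocytes. At rest they store vitamin A as retinyl esters and secrete growth factors for hepatocytes, and in injured liver they can turn into matrix-forming myofibroblasts. Pericytes and vascular smooth muscle cells wrap vessels elsewhere in the liver and share the PDGF receptor beta with stellate cells. In whole liver a change in the number of these cells and a change in RNA per cell cannot be told apart.

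The values were log2 signals between 5.14 and 13.98 with a table median of 5.66, and the 12 arrays had identical sorted values. The median gene had a mean of 5.72 over the arrays. All 10 markers except Ngfr lay above it, although Cygb in control livers and Des in both groups were close to it, and a signal near the bottom of the range cannot be told from background here. Hepatocyte markers fitted the tissue label: Alb was the brightest probe set on every array, and the log2 summed signal of 14 hepatocyte markers was 16.84 to 16.95 in control and 16.79 to 16.85 in PCK livers. Gfap, a defining filament gene of rat stellate cells, was at 5.43 ± 0.022 in control and 5.42 ± 0.016 in PCK livers (SD, n = 6 each), below the table median, so it gave no sign of the cells on these arrays.

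The markers split into a group that was higher and a group that was lower in PCK livers. Rgs5, Pdgfrb, Cygb, Vim and Des were higher and Hgf, Reln, Lrat and Ngfr were lower, while Pdgfra did not pass the test. With limma at a Benjamini-Hochberg adjusted p under 0.05 over all named genes, 9 of the 10 markers (90%) passed, where 38.3% of all named genes did. The 5 higher markers compare with 17.4% of all genes called higher, and the 4 lower ones with 21.0% called lower. In 3 markers every PCK value lay above every control value and in 3 every PCK value lay below. These 6 of 10 compare with 21.6% of all genes whose groups did not overlap, 11.0% with PCK livers above and 10.6% with PCK livers below. The median log2 difference was 0.11 over the markers and -0.0067 over all genes, since rises and falls offset each other.

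**Figure D1:**
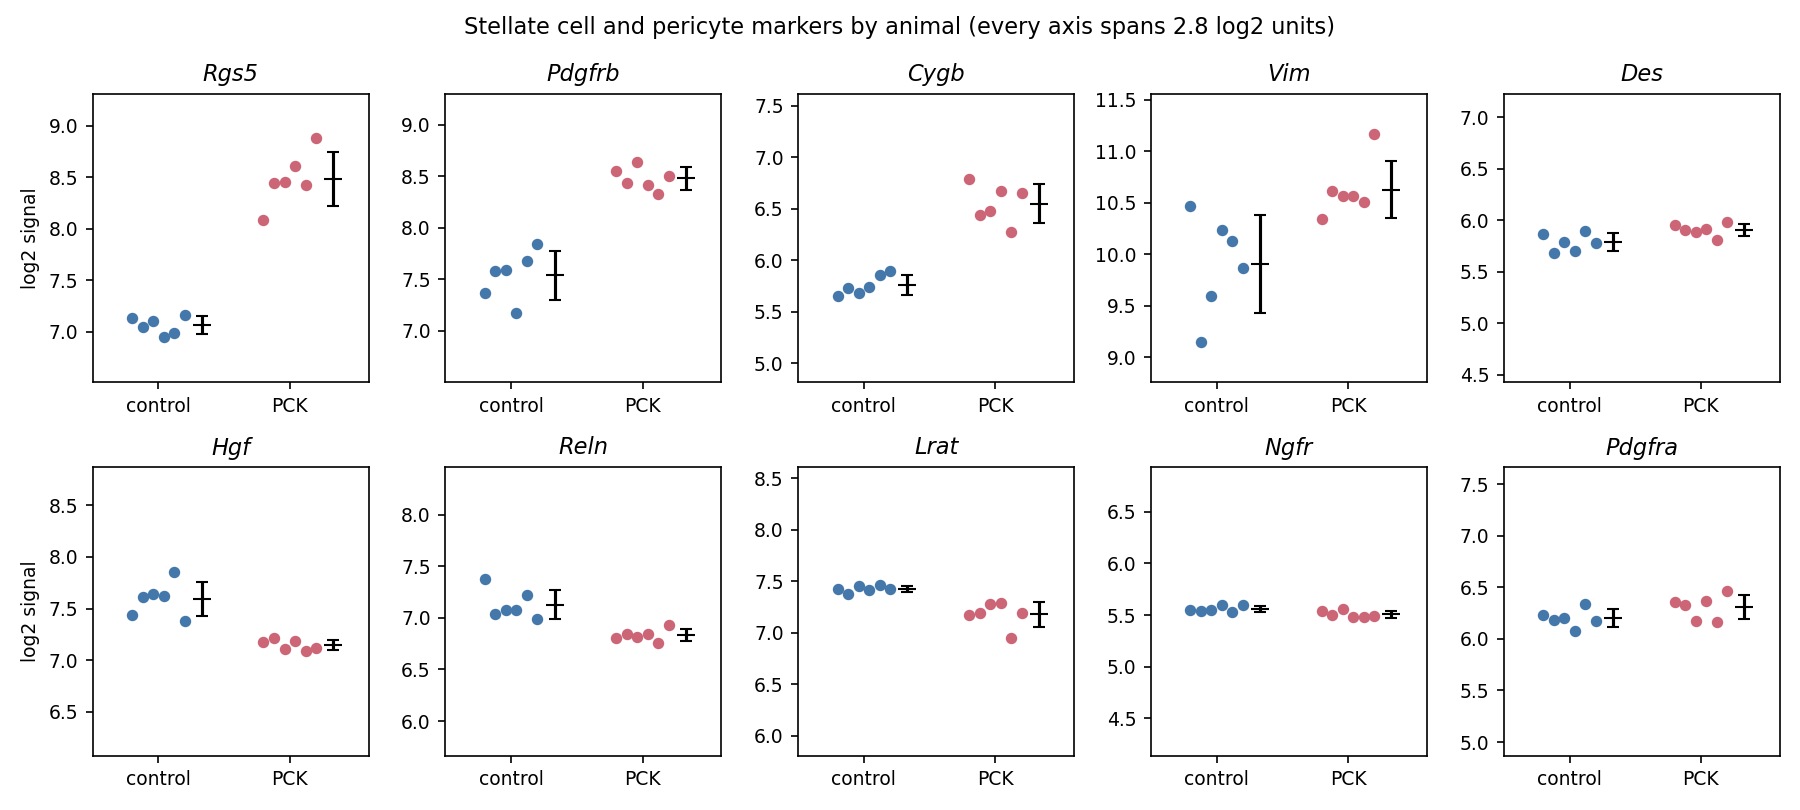
Log2 signal of each marker (y axis) in 6 control and 6 PCK livers (x axis); each point is 1 animal, the black bar is the mean with its SD, and every y axis spans 2.8 log2 units. The groups are apart in Rgs5, Pdgfrb, Cygb, Hgf, Reln and Lrat and overlap in Vim, Des, Ngfr and Pdgfra.

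Rgs5 encodes a regulator of G protein signalling that shortens the response to receptors coupled to Gq and Gi, and it is a common marker of pericytes. The lowest, median and highest signals were 6.95, 7.07 and 7.17 in control livers and 8.09, 8.45 and 8.88 in PCK livers. The lowest PCK liver was thus 0.92 log2 units above the highest control liver, the widest gap among the 10 markers. The difference was 1.42 ± 0.11 (log2, SE, n = 6 each; limma adjusted p = 2.52e-06), or 2.67-fold, and 0.500% of all named genes had a larger rise. In the 12 fits that dropped a single array it was never below 1.34.

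The Rgs5 promoter is shown because this marker had the largest change, and those of Hgf, Reln and Lrat because these fell with no overlap of the groups. Each is the window that RefSeq on build GRCr8 gives as 250 bases before to 50 after the gene start, 5′ to 3′ on the gene's strand; for Reln the start listed in the gene table, 13628440, is at another base within the window. Capitals mark matches on either strand to 1 of the 5 motifs searched: AP-1 (TGANTCA), TEAD (CATTCC), GC box (GGGCGG), E-box (CAGCTG) and the SRF CArG box. The regions are chr13:84380827-84381126 on the plus strand for Rgs5, chr4:19700418-19700717 on the minus strand for Hgf, chr4:13628318-13628617 on the plus strand for Reln and chr2:170571163-170571462 on the minus strand for Lrat.
Rgs5: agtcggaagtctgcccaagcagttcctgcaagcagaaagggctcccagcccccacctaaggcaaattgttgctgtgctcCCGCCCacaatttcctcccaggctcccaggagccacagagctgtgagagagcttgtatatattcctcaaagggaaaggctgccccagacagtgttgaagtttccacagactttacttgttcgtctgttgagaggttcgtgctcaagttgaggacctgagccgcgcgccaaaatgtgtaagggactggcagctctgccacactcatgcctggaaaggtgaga
Hgf: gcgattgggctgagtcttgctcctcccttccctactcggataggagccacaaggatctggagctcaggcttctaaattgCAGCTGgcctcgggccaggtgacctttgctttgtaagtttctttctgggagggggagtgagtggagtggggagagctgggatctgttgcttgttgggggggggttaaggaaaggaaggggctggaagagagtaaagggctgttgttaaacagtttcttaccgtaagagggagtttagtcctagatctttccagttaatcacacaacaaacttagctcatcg
Reln: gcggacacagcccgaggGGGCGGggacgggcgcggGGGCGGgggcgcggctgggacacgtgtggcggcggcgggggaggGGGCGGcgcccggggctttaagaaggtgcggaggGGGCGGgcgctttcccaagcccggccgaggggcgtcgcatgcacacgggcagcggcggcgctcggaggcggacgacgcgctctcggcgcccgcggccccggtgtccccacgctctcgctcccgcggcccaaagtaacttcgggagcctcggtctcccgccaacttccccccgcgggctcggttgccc
Lrat: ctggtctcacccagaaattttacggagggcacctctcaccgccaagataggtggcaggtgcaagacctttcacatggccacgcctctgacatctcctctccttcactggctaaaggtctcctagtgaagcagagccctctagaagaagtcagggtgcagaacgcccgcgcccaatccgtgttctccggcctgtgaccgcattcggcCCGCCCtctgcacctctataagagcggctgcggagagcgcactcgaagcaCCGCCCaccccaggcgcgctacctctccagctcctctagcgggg
Promoter sequences were matched for 7 of the 10 markers. The GC box, a site of Sp family factors, was present in 5 of the 7 (Rgs5, Lrat, Reln, Des and Vim) and in 33.1% of 33469 promoters. The Reln promoter held 4 GC boxes, Lrat 2 and Rgs5 1, so this motif stood both in a promoter of a gene that rose and in those of genes that fell. The E-box form searched was found in Hgf and Des and in 15.1% of all promoters, and the AP-1 motif in Pdgfra and in 7.33%. No match to the TEAD motif, found in 14.2% of promoters, or to the CArG box, found in 1.64%, was present in the 7 windows. A match is a description of letters, not a tested site.

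Of 18 other RGS genes measured, 5 rose and 2 fell. These are 38.9% of the 18, close to the 38.3% of all named genes that passed, and the median difference of the 18 was 0.0095. Rgs16, a relative in the same subfamily, went from 5.70 ± 0.22 to 8.46 ± 1.16 (SD, n = 6 each), a rise of 2.76 ± 0.45 (log2, SE; adjusted p = 0.000615 with limma), with a far wider spread among PCK livers than Rgs5 (SD 0.26). The control level of Rgs16 was close to the median gene, so the size of its rise is less certain than its direction. Rgs4, another pericyte gene of the subfamily, rose by 0.064 (limma adjusted p = 0.0369) at a signal below the table median. Only 4 of the 18 lay above the median gene, so the family was mostly near the bottom of the range.

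The PDGF receptors differed. Pdgfrb encodes the receptor for PDGF-B and PDGF-D through which pericytes are recruited to vessels and stellate cells are driven to divide. Its lowest, median and highest signals were 7.17, 7.59 and 7.84 in control livers and 8.33, 8.47 and 8.63 in PCK livers. The groups did not overlap, with 0.49 log2 units between the nearest animals, and PCK livers were less spread (SD 0.11) than control livers (SD 0.24). The rise was 0.94 ± 0.10 (log2, SE, n = 6 each; limma adjusted p = 3.12e-05), 1.92-fold.

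Pdgfra, the receptor that also binds PDGF-A and PDGF-C and marks fibroblasts widely, was at 6.07, 6.19 and 6.34 in control livers and at 6.16, 6.34 and 6.46 in PCK livers (lowest, median and highest). The groups overlapped over most of their range. The difference was 0.11 ± 0.057 (log2, SE, n = 6 each; limma adjusted p = 0.170), with a 95% interval from -0.019 to 0.23, so a rise above 0.23 lies outside the interval while a smaller one does not.

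Of the 4 ligands, 3 were higher. Pdgfa rose by 0.30 (limma adjusted p = 0.00859) and Pdgfd by 0.27 (0.000270), and Pdgfb rose by 0.067 (0.0363). The signals of Pdgfd and Pdgfb were below the median gene. Pdgfc, at -0.050 (0.636), did not pass. Plat, the protease that activates PDGF-C, rose by 1.33 ± 0.17 (log2, SE; limma adjusted p = 9.84e-05). Of 9 measured genes of the pathway other than the receptors, 4 were higher and 1, the protease Furin, was lower. These are 55.6% of the 9, against 38.3% of all named genes called.

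Cygb encodes cytoglobin, a haem protein of stellate cells and other fibroblast-like cells that binds oxygen and nitric oxide. In order, the lowest, median and highest Cygb signals were 5.65, 5.74 and 5.90 in control livers and 6.27, 6.56 and 6.78 in PCK livers. All PCK livers lay above all control livers. The rise was 0.79 ± 0.082 (log2, SE, n = 6 each; limma adjusted p = 2.41e-05), 1.73-fold, from a control level near the median gene, so its size is less certain than its direction.

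The intermediate filament genes of mesenchymal cells rose less evenly. Vim encodes vimentin, which stellate cells share with endothelial cells, macrophages and other leukocytes. The lowest, median and highest Vim signals were 9.15, 10.00 and 10.47 in control livers and 10.34, 10.57 and 11.17 in PCK livers. The groups overlapped, since PCK 1 lay below control 1, and the control spread (SD 0.48) was the widest of any marker. The rise was 0.72 ± 0.21 (log2, SE, n = 6 each; limma adjusted p = 0.0196). PCK 6 stood apart at 11.17, and without it the rise was 0.61 (adjusted p = 0.0413). With control 5, control 6 and PCK 6 all left out it was 0.66 and the call was lost (adjusted p = 0.0753).

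Des encodes desmin, the muscle-type filament protein that marks rat stellate cells, pericytes and smooth muscle. For Des the lowest, median and highest signals were 5.68, 5.79 and 5.89 in control livers and 5.81, 5.91 and 5.98 in PCK livers. The ranges overlapped, and both groups were close to the median gene. The rise was 0.12 ± 0.040 (log2, SE, n = 6 each; limma adjusted p = 0.0330), or 1.09-fold, and the call was lost without PCK 1, 2, 4 or 6 or control 2, 3, 4 or 6 (adjusted p up to 0.0715). Of 16 other intermediate filament genes measured, 4 were higher and 1 was lower, or 31.2% called against 38.3% of all named genes. The higher ones were the bile duct and epithelial keratin genes Krt19, Krt8 and Krt7, at 1.88, 0.88 and 0.44, and the lamin gene Lmna, at 0.15.

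Hgf, Reln, Lrat and Ngfr, 4 of the 5 markers on the list of resting stellate cell genes, were lower, while the other, Cygb, was higher as given above. Hgf encodes hepatocyte growth factor, a secreted ligand of the receptor Met that drives hepatocyte growth. Its lowest, median and highest signals were 7.38, 7.62 and 7.86 in control livers and 7.09, 7.15 and 7.21 in PCK livers. Every PCK liver was below every control liver, and the PCK spread (SD 0.050) was narrower than the control spread (SD 0.17). The difference for Hgf was -0.44 ± 0.067 (log2, SE, n = 6 each; adjusted p = 0.000362 with limma), which left 73.5% of the control level. The receptor Met, at -0.055 (limma adjusted p = 0.464), did not pass.

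Of 9 measured genes around Hgf, 7 (77.8%, against 38.3% of all named genes called) were higher and none passed as lower (limma; 8 and 0 at an unadjusted p under 0.05). The other 2, Met and Gab1, did not pass. They include Plau, the urokinase protease, which rose by 0.98, and St14, encoding matriptase, which rose by 0.33. Hgfac, the circulating activator of pro-HGF, rose by 0.28. The inhibitors of these proteases rose too, Spint1 by 0.28, at a signal below the median gene, and Spint2 by 0.27. The list therefore holds both activators and inhibitors that rose. Plau and St14, at 5.64 and 5.58 in control livers, started below the table median, so the sizes of these rises are not compared.

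Reln encodes reelin, a large secreted glycoprotein made in liver by stellate cells. Its lowest, median and highest signals were 6.99, 7.07 and 7.37 in control livers and 6.75, 6.83 and 6.94 in PCK livers. The groups did not overlap, but the nearest animals were only 0.059 log2 units apart. Reln fell, at -0.29 ± 0.060 (log2, SE, n = 6 each; limma adjusted p = 0.00248). Of its receptors, Vldlr rose by 0.12 (0.00264) and Lrp8, at 0.011 (0.561), did not pass, both at signals below the table median. Dab1, the adaptor that carries the reelin signal into the cell, fell, at -0.99 ± 0.21 (log2, SE; limma adjusted p = 0.00292), and all its PCK values lay below its control values.

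Lrat encodes lecithin retinol acyltransferase, which makes the retinyl esters that stellate cells store. Its lowest, median and highest signals were 7.38, 7.42 and 7.46 in control livers and 6.96, 7.20 and 7.29 in PCK livers. The control livers were very close to each other (SD 0.030), and PCK livers spread more (SD 0.12), with PCK 5 the lowest. The difference for Lrat was -0.24 ± 0.048 (log2, SE, n = 6 each; adjusted p = 0.00211 with limma), which left 84.4% of the control level. Without PCK 5 the fall was smaller, at -0.20, and still passed.

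Other vitamin A genes went both ways. Of 15 measured besides Lrat, 6 were higher and 3 lower, or 60% called against 38.3% of all named genes. Rdh10, which oxidises retinol, fell, at -0.60 ± 0.044 (log2, SE; limma adjusted p = 2.25e-06), and Rbp4, the plasma carrier of retinol made by hepatocytes, fell, at -0.10. Bco1, which cleaves beta-carotene to retinal, rose by 3.40 and Aldh1a1, a retinal dehydrogenase, by 1.01. Pnpla3, a lipase that releases retinol from retinyl esters in human stellate cells and that hepatocytes also express, rose by 4.81. Its control signal, 5.63, was below the table median, so the size of this rise is less certain than its direction.

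Ngfr encodes the p75 neurotrophin receptor, found on stellate cells and nerve. It ran from 5.53 to 5.60 in control livers and from 5.48 to 5.56 in PCK livers, below the table median on all arrays. The difference was -0.053 ± 0.017 (log2, SE, n = 6 each; limma adjusted p = 0.0322), and 6 of the 12 fits that left out 1 array did not call it (without PCK 2, 4, 5 or 6 or control 4 or 6, adjusted p up to 0.0692). Its ligand gene Ntf3 fell, at -1.56 ± 0.13 (log2, SE; adjusted p = 6.38e-06 with limma), from 7.45 ± 0.34 to 5.89 ± 0.070 (SD, n = 6 each). Of 7 measured neurotrophin genes besides Ngfr, 3 were higher and 1, Ntf3, was lower, or 57.1% called against 38.3% of all named genes.

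**Figure D2:**
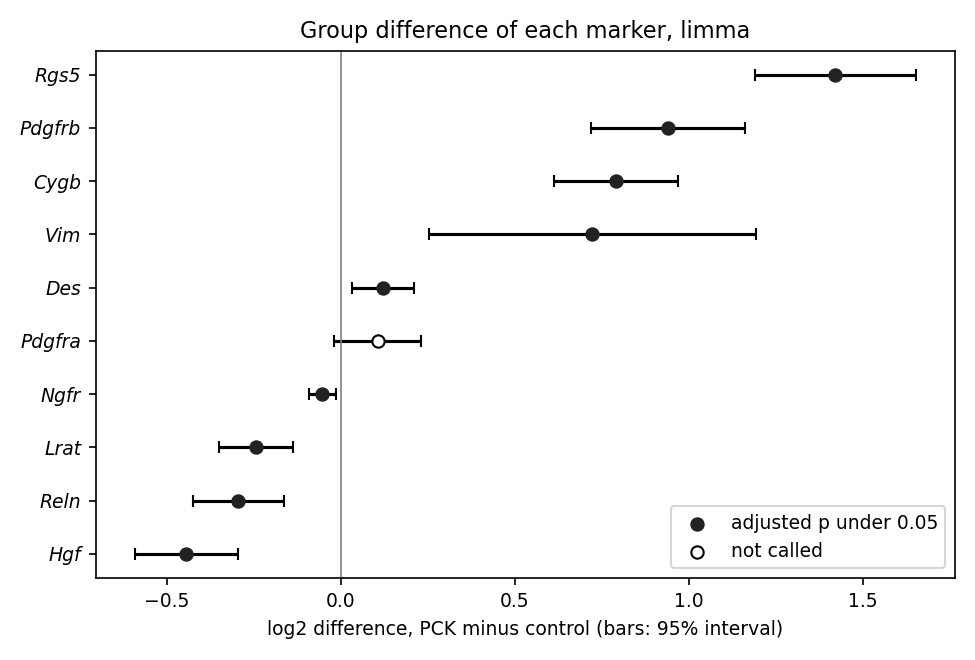
Log2 difference of each marker, PCK minus control (x axis), with its 95% interval from limma; filled points passed an adjusted p of 0.05 and the open point, Pdgfra, did not. Rgs5 is highest at 1.42 and Hgf lowest at -0.44.

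Whether 2 markers changed unequally was tested within arrays, where any scaling of a whole array cancels. The signal of one was subtracted from that of the other on each array, and the 5 differences were compared between the groups with an exact permutation test (2-sided, 924 assignments, smallest possible p = 0.00216) with Benjamini-Hochberg adjustment over the 5 pairs. Pdgfrb rose relative to Pdgfra by 0.83 ± 0.11 (log2, SE, n = 6 each; exact permutation adjusted p = 0.00541). The groups were apart, from 1.10 to 1.67 in control and from 2.04 to 2.46 in PCK livers. The single values fixed this separation beforehand. The gap of 0.49 log2 units between the groups in Pdgfrb is wider than the whole range of Pdgfra, 6.07 to 6.46. This pair thus restates the single results of the 2 receptors.

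Cygb rose relative to Lrat by 1.03 ± 0.072 (log2, SE; exact permutation adjusted p = 0.00541). These groups were apart as well, from -1.77 to -1.52 in control and from -0.80 to -0.39 in PCK livers. That outcome was fixed beforehand, since every PCK liver lay above every control liver in Cygb and below in Lrat. The pair thus restates the 2 single results, in which 2 genes used to mark the same cell changed unequally. Rgs5 rose relative to Pdgfrb by 0.48 ± 0.15 (exact permutation adjusted p = 0.0180), and PCK 1, at -0.47, lay within the control range. Des fell relative to Vim, at -0.60 ± 0.20 (exact permutation adjusted p = 0.0189), also with overlap. Des was close to the median gene in both groups, so a change in it may be understated, and this pair does not show the size of any difference between the genes. Lrat and Reln, 2 genes of the resting cell, had a difference of 0.050 ± 0.070 (exact permutation adjusted p = 0.509), which did not pass.

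**Figure D3:**
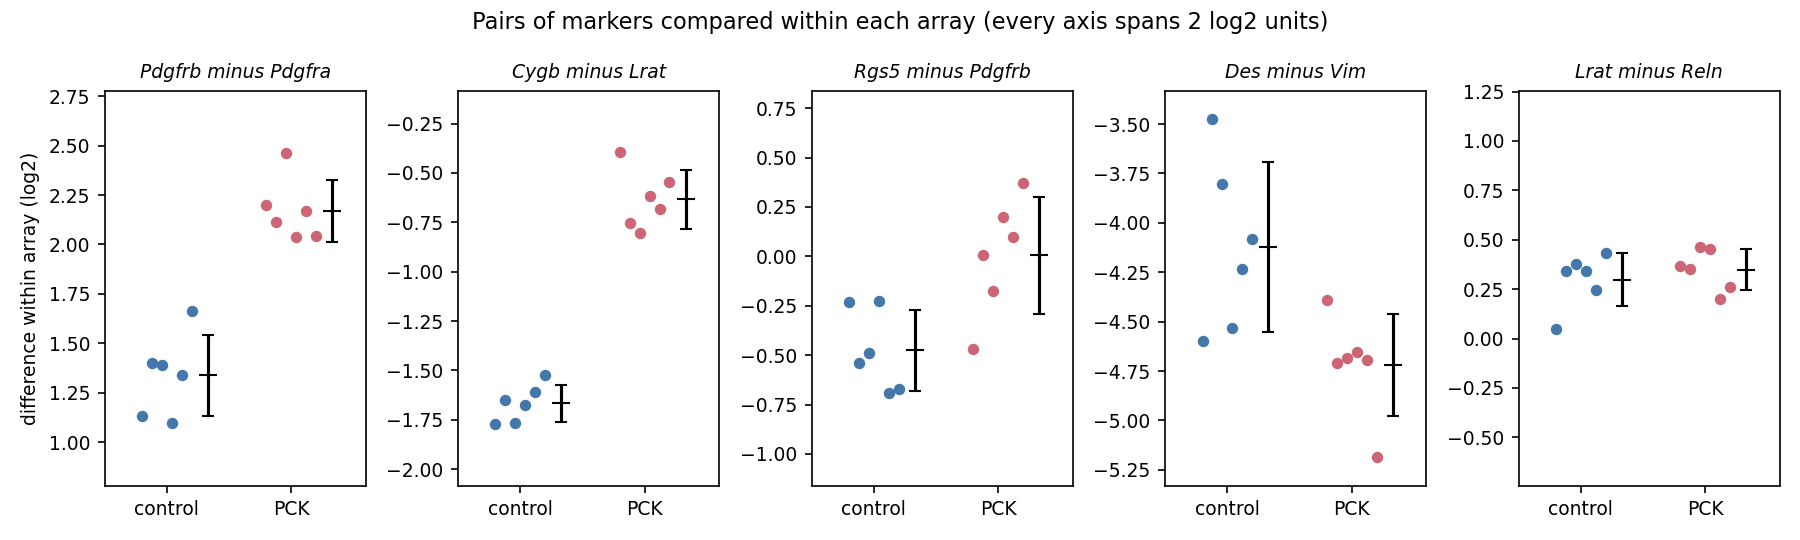
Difference of 2 markers on the same array (log2, y axis) in 6 control and 6 PCK livers (x axis); points are animals, the black bar is the mean with its SD, and every y axis spans 2 log2 units. The groups are apart for Pdgfrb minus Pdgfra and for Cygb minus Lrat, and overlap for the other pairs.

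The animals were not ordered alike in all markers. PCK 6 was the highest PCK liver in 5 of the 10 (Rgs5, Pdgfra, Reln, Des and Vim), and PCK 5 was the lowest in 7 (Pdgfra, Pdgfrb, Cygb, Lrat, Reln, Hgf and Des). Among control livers, control 4 was the lowest in Rgs5, Pdgfra and Pdgfrb, control 6 was the highest in Rgs5, Pdgfrb and Cygb, and control 5 was the highest in Pdgfra, Lrat, Hgf and Des. PCK 5 therefore lay low both in markers that rose and in markers that fell.

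Related genes outside the 10 markers were counted in lists. Of 18 measured genes of the resting stellate cell, the markers included, 12 fell and 1, Cygb, rose. Of the 13 that are not among the markers, 8 fell and none passed as higher (limma; at an unadjusted p under 0.05 the counts were 8 and 0), with a median difference of -0.20 against -0.0067 over all genes. These 8 are 61.5% of the 13, where 38.3% of all named genes passed and 21.0% passed as lower. Ecm1, a matrix protein that hepatocytes make as well, was lower by a log2 difference of -0.69 ± 0.063 (SE; adjusted p = 9.88e-06 with limma). The collectin genes Colec10, at -0.59, and Colec11, at -0.39, fell, as did Angptl6, at -0.30, which hepatocytes also express. Hhip, a hedgehog binding protein, fell (-0.29), and Rspo3, a Wnt enhancer that stellate and endothelial cells make (-0.26). The last 2 were named after their values were seen.

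Of 17 measured pericyte and smooth muscle genes other than the markers, 7 were higher and 1 was lower, with a median difference of 0.026. These are 47.1% of the 17, where 38.3% of all named genes passed. Tagln, an actin-binding protein of smooth muscle and myofibroblasts, rose by 0.55 ± 0.11 (log2, SE; limma adjusted p = 0.00253), Anpep, a peptidase that bile duct cells and hepatocytes carry too, by 0.43, the potassium channel gene Kcnj8 by 0.17 and the adhesion molecule gene Mcam by 0.14. Cspg4, encoding the pericyte proteoglycan NG2, at -0.0054 (0.776), and Myh11, the smooth muscle myosin, at -0.0044 (0.900), did not pass, and both were below the table median. Only 5 of the 17 lay above the median gene. None of the 17 had a difference above 0.55, where Rgs5 and Pdgfrb were at 1.42 and 0.94.

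Of 14 measured myofibroblast genes 8 were higher and none passed as lower (limma; 10 and 0 at an unadjusted p under 0.05), led by Loxl1, a matrix crosslinking enzyme, at 1.39, and Timp1, an inhibitor of metalloproteases, at 1.11. The 8 are 57.1% of the 14, where 38.3% of all named genes passed. Col1a1 rose by 0.38, while the other fibrillar collagen genes of the list, Col1a2 at 0.14 (limma adjusted p = 0.441) and Col3a1 at 0.31 (0.0588), did not pass, nor did Fn1 and Lox. Of the 8 that rose, Lum, Postn, S100a6 and Thy1 were below the median gene. Of 16 measured genes of portal fibroblasts and mesothelium, 9 were higher and none passed as lower (limma; 9 and 1 at an unadjusted p under 0.05). These are 56.2% of the 16, against 38.3% of all named genes called. Only 5 of the 16 lay above the median gene, and of those that rose, Cd34, Fbln2, Ntn4, Thy1 and Upk3b were below it. Mfap4, a microfibril protein, rose by 2.28, and Gpm6a and Msln, both mesothelial genes, by 2.09 and 1.42. Dpt, a matrix protein gene, rose by 0.39.

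**Figure D4:**
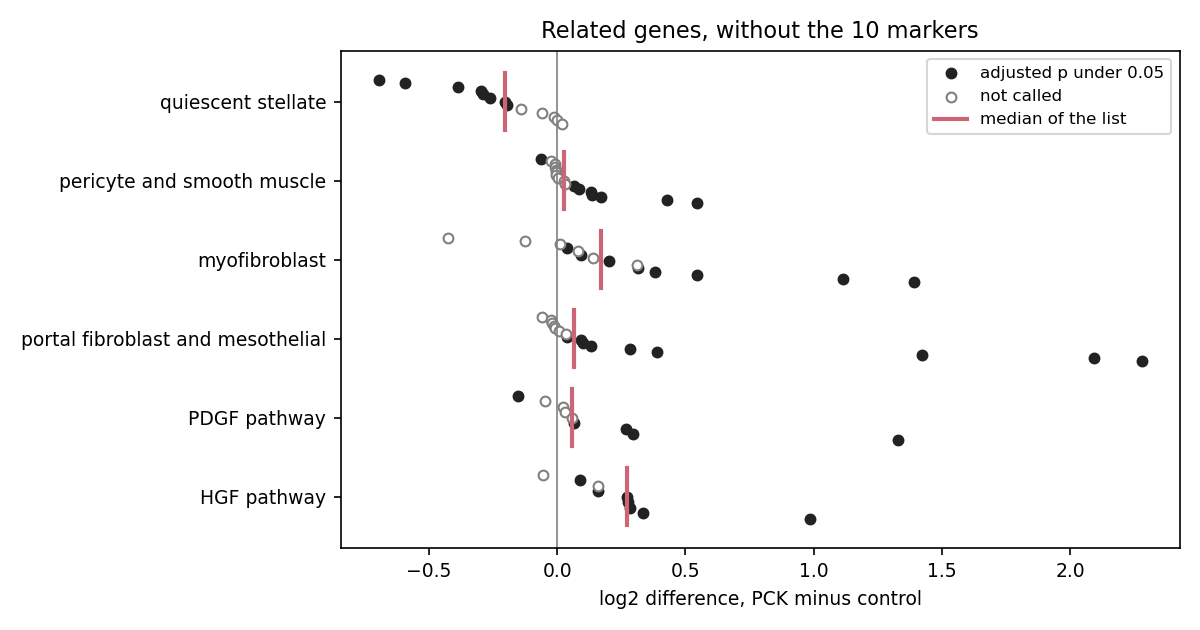
Log2 difference, PCK minus control (x axis), of the measured genes of 6 lists (y axis) without the 10 markers; each point is a gene, filled where it passed an adjusted p of 0.05, and the red bar is the median of the list. The median of the resting stellate cell list is -0.20, and the largest rise shown is Mfap4 at 2.28.

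Among markers of other liver cells, 91.7% of the bile duct and 83.3% of the macrophage genes passed, against 38.3% of all named genes. The shares were 45.5% for endothelial, 42.9% for hepatocyte and 0% for red cell genes. Of 12 measured bile duct markers 11 were higher and none lower (limma; 11 and 0 at an unadjusted p under 0.05), and their log2 summed signal was 9.87 to 10.40 in control and 10.59 to 11.58 in PCK livers. Onecut1, the 1 that did not pass (0.55, limma adjusted p = 0.425), weighs on this sum. It was at 10.49 in PCK 4, the array with the highest sum. Pkhd1, the gene mutated in PCK rats, is on the list too, so the sum is no clean measure of bile duct cells. Of 12 measured macrophage markers 10 were higher and none lower (limma; 10 and 0 unadjusted), with summed signals of 11.84 to 12.52 and 12.96 to 13.40. PCK 6, the highest PCK liver in Vim, was also the highest here. Among controls the order differed: control 1, the highest in Vim, had rank 4 from the top in this sum, and control 5 had rank 1. Of 11 endothelial markers 1 was higher and 4 were lower, among them Clec4g, a lectin of sinusoidal endothelium, at -0.99, and the summed signals, 11.91 to 12.21 and 11.68 to 11.95, overlapped. Of 14 hepatocyte markers none was higher and 6 were lower (limma; 1 and 7 unadjusted), led by Hal, at -1.14. Alb, the brightest probe set on every array, had the same value, 13.98, on all of them and could not be called. Of 5 red cell genes 0 passed with limma, and 1 was higher at an unadjusted p under 0.05. The part of these cells in the marker differences was not tested.

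The genes most like 3 of the markers were ranked by the root mean square difference of their signals over the 12 arrays, after each gene's control mean was subtracted, among 8294 named genes above the median gene. Rgs5 was nearest to Plce1 (0.17 log2 units), Plat (0.17) and Tspan8 (0.18), where the median gene was 1.05 away. The filter used the mean over all 12 arrays, and Tspan8 passed it only through PCK livers. Its mean was 6.79 there and 5.25 in control livers, near the bottom of the range. Pdgfrb was nearest to Stra6l, Ccng2 and Tubb2a (each 0.15, median gene 0.71). Hgf was nearest to Sar1b (0.067), Lipe (0.076) and Ocel1 (0.076, median gene 0.33). The measure takes in the size of the group difference as well as the order of the animals, and the 12 arrays behind it are those of the tests.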

How the data were processed

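Per the labels' protocols, total RNA of 6 PCK and 6 control livers (Trizol) was labelled as biotinylated cRNA for Affymetrix arrays. The authors deposited 1 table of log2 signals for 19239 gene-level probe sets. All 12 deposited columns hold the same sorted values, as quantile normalization gives, so a difference in total RNA between livers would have been removed. The summarisation method is not given in the sources used here. The platform annotation named 16592 probe sets, each with 1 symbol, and left 2647 unnamed; 3326 older symbols were replaced through RefSeq (GRCr8), and 33 that differed and 139 not in that table were kept.

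The fit was made in R 4.3.3 with limma 3.58.1 (lmFit, eBayes, 2-sided, no filter, Benjamini-Hochberg over 16592 genes, threshold 0.05), and differences are PCK minus control with moderated standard errors. Exact permutation tests used SciPy 1.17.1, and figures matplotlib 3.10.9 in Python 3.11.15. On data simulated for this comparison, 95 of 100 genes changed 1.5-fold and 100 of 100 changed 2-fold were recovered, with 7 false among 202 calls over 16592 genes. The simulated noise was normal and independent between genes, and only 200 genes changed, where 38.3% of real genes were called. It does not cover changes below 1.5-fold, as those of Hgf, Reln, Lrat, Des, Ngfr and Pdgfra were.

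The markers and lists were chosen with earlier results of these data known, so their counts are descriptions. The text names all 10 markers and, per list, up to 4 called genes with the largest absolute difference, besides ligands and receptors; other genes were named after their values were seen. List members without a named probe set, Acta2 among them, were not analysed here. The arrays share replicate numbers, but the deviations of same-numbered arrays correlated at -0.137 to 0.165 over genes, so the numbers were not taken as pairs.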

Additional observations from a re-analysis of the deposited data

Results flagged for a closer look

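Among 66 named genes in 2 groups each, 132 tests for a single animal far from its group (Dixon's criterion, the gap to the nearest animal as a share of the range) picked out 14, where chance alone gives about 1 in 20. Of these, 2 were in the markers. Lrat in PCK 5 was 6.96, with the other PCK livers at 7.18 to 7.29. Vim in PCK 6 was 11.17, with the other PCK livers at 10.34 to 10.62.

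By the same criterion PCK 6 stood above the other PCK livers in 6 further genes: C1qb at 9.93, Krt19 at 8.28, Loxl1 at 8.27, Lyz2 at 11.68, Pdgfd at 5.89 and Spint1 at 5.89. These are markers of macrophages (C1qb, Lyz2) and bile duct cells (Krt19), a matrix enzyme, a ligand of the PDGF receptor beta and a protease inhibitor. Control 5 stood apart in Loxl1, at 6.26 against 5.87 to 5.95 in the other controls, in Pkhd1, at 6.60 against 7.07 to 7.21, and in Rgs3, at 6.30 against 6.02 to 6.10. Control 2 stood apart in Hpd at 13.53 and in Kcnj8 at 5.74, and control 4 in Tspan8 at 5.30, near the bottom of the range. What set these animals apart was not tested.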

How the results depend on the processing

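Rgs5, Pdgfrb, Cygb, Hgf, Reln and Lrat were called in the same direction in all 22 refits of the table, while Pdgfra was called in 0 of them by limma (unadjusted p = 0.0893 in the fit reported). The refits varied the centring, the variance model, the weight of each array, the genes or probe sets entered and the replicate number, and left out arrays. Between 7 and 9 markers were called when 1 array was left out, 4 to 5 of them higher and 3 to 4 lower. With the replicate number as a block, 3 markers were called higher instead of 5, since Vim (adjusted p = 0.0547) and Des (0.0800) no longer passed, nor did Ngfr (0.0916) among the lower ones. At an adjusted p under 0.01, 3 were higher, and with a change of at least 1.2-fold added 2 were lower. Of 5 marker pairs 4 passed in each fit without 1 array. However, Cygb with Lrat and Pdgfrb with Pdgfra had to be apart, as said above. With a replicate block of sign flips 0 passed, where the smallest possible unadjusted p is 0.0312 and 0.0781 was the lowest adjusted p. The sizes of the differences are the same with the block, and no label says that the numbers mark pairs. If they do, the calls of Vim, Des and Ngfr do not hold at this threshold. Over 134 related genes, 45 to 55 were called higher and 14 to 19 lower without 1 array. In the same fits 2679 to 2880 of all 16592 named genes were called higher and 3014 to 3487 lower. Centring on the median of the brightest 25% of genes was added after the data were seen, and it left the 9 calls in place. Signal near the bottom of the range limits Ngfr and Des, and Cygb in controls.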
